A study of Mus musculus with 11 samples.

Results

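Transcripts of 9 genes that report on the NRF2 pathway were described in mouse liver: Nqo1, Srxn1, Cbr3, Entpd5, Ephx1, Slc48a1 and Osgin1, which are targets of NRF2, and Nfe2l2 and Keap1, which encode NRF2 and its inhibitor. Every probe set that the platform annotation gave to exactly 1 of these symbols was taken, whatever its signal, which gave 17 of 22626 probe sets on the array and 9 of 12393 genes. Srxn1 and Entpd5 had 4 probe sets each, Slc48a1 and Keap1 had 2 each, and the others had 1. The 6 Gsr-null livers came from male mice lacking Gsr, the gene of glutathione reductase, which regenerates reduced glutathione with NADPH, and the 5 wild-type (WT) livers from male mice with the gene intact. All mice carried the C57BL/6J background and were 15 to 20 weeks old, no treatment is named for them, and their livers were taken between 2 and 4 in the afternoon. Samples are numbered here by the biological replicate number of their titles. The labels name neither the kind of Gsr allele nor litters or cages, so p-values measure the spread between these samples.

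NRF2 is a transcription factor that the adaptor KEAP1 hands to the CUL3 ubiquitin ligase for degradation. Oxidants and electrophiles modify cysteines of KEAP1, after which NRF2 accumulates, pairs with a small MAF protein and binds antioxidant response elements in its target genes. Because NRF2 is controlled mainly through its protein, the transcripts of its targets are the usual readout in liver, where they encode enzymes of detoxification, thiol repair and NADPH supply.

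The antioxidant response element was looked for in the members' promoters, and 4 promoters are shown because their genes gave the clearest patterns across the livers. RefSeq (build GRCm38.p6) gave a window of 250 bases before and 50 after the start for 8 of the 9 members, Slc48a1 being the other. Each window was searched on both strands for TGACNNNGC, a core of the element, and for the looser TGANNNNGC, which contains every match of the first. The 250 bases before the start are given 5′ to 3′ on the gene's strand, with matches to TGANNNNGC or its reverse complement in capitals. The start used for Osgin1 lies inside the annotated gene.
Srxn1, chr2:152105274-152105523, plus strand: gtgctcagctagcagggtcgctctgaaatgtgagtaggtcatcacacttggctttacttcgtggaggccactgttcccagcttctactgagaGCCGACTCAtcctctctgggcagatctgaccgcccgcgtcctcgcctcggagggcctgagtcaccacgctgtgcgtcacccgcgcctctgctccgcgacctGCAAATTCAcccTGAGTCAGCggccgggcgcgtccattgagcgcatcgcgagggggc
Nqo1, chr8:107403206-107403455, minus strand: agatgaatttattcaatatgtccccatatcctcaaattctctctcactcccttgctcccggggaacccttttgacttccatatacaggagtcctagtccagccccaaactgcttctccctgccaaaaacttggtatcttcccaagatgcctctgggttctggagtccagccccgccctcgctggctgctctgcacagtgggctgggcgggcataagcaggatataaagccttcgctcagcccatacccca
Cbr3, chr16:93682969-93683218, plus strand: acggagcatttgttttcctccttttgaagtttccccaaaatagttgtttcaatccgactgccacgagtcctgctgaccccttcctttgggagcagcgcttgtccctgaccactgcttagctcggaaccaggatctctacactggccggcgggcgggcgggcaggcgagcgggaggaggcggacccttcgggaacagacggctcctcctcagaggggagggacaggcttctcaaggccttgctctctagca
Osgin1, chr8:119436897-119437146, plus strand: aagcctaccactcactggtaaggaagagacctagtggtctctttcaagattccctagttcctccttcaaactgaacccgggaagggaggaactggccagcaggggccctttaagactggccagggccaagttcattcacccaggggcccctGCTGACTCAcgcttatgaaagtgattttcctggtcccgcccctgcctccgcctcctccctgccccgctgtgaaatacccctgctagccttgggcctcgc
Srxn1 held 4 matches to TGANNNNGC, whose first bases lie at -158, -57, -45 and 29 relative to the start. The match at 29 is also a match to TGACNNNGC and lies after the start. Osgin1 held 1 match, at -99, on the strand opposite to the gene. Keap1 held 1 match to TGANNNNGC, at -61, also on the strand opposite to the gene. No match stood in these letters of Nqo1 and Cbr3, nor in the windows of Entpd5 and Ephx1. Sequence outside the windows was not searched, so a gene without a match here may have an element elsewhere. In the promoter of Nfe2l2 itself a match to TGACNNNGC began at -240 and is shown with its flanking bases.
Nfe2l2, match at chr2:75704895-75704903, minus strand: agcccaccTGACTCCGCcatgcccc
In all, TGACNNNGC was present in 2 of the 8 windows and TGANNNNGC in 4 of them. Among all 32851 promoter windows of the same length, 12.4% held TGACNNNGC and 41.3% held TGANNNNGC, so the looser form is frequent and a match describes letters only.

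Levels are the deposited log2 values, in which a difference of 1 is a doubling, and are compared within a probe set only. Gsr, the targeted gene, was lower in every Gsr-null liver than in any WT liver on both of its probe sets. On the brighter probe set it averaged 4.99 ± 0.207 (SD, n = 6) in Gsr-null and 6.82 ± 0.126 (SD, n = 5) in WT livers, a difference of -1.83 (SE 0.123, limma adjusted p = 1.82e-05). The hepatocyte markers Alb, Apoa1, Ahsg, Ttr, Fgb, Tat and Cyp2e1 were all present, with mean list levels of 13.22 to 13.56 in Gsr-null and 12.99 to 13.43 in WT livers, whereas the markers on the array for cholangiocytes, T and NK cells and B cells all failed the filter on low signal. Control probe sets for Gapdh and Actb, read at both ends of the transcript, gave a 3′ minus 5′ difference of 0.544 to 0.703 in Gsr-null samples 1, 2 and 3 and WT samples 2 and 4. It was 1.20 to 1.75 in Gsr-null samples 4, 5 and 6 and WT samples 1, 3 and 5, so within-set differences are given beside the results. The arrays of Gsr-null samples 2 and 3 had a higher floor, with a 5th percentile of 1.79 and 1.76, against 1.53 to 1.62 on the others.

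No readout gene passed the test between the genotypes. The spread among Gsr-null livers was far wider than among WT livers for Srxn1 (SD 0.446 against 0.109) and Cbr3 (0.969 against 0.193). For Osgin1 (0.686 against 0.619), Entpd5 (0.453 against 0.387), Nfe2l2 (0.477 against 0.430) and Keap1 (0.333 against 0.320) the spreads were close. Nqo1 (0.732 against 0.494), Ephx1 (0.461 against 0.241) and Slc48a1 (0.399 against 0.249) lay between. On the brightest probe set of each gene, Nqo1, Srxn1, Cbr3, Entpd5, Ephx1 and Slc48a1 were highest in Gsr-null samples 4 and 5. Osgin1 was below its WT mean in those livers and in Gsr-null sample 6. The test was limma on probe sets that exceeded 4 (log2) in 5 or more samples, with a call at an adjusted p under 0.05 over all tested probe sets. Of the 17 member probe sets 11 passed that filter, and limma called 0 of them, while 1, of Srxn1, had an unadjusted p under 0.05. Over all 9560 tested probe sets 0.387% were called (0.167% higher and 0.22% lower in Gsr-null), and 8.36% had an unadjusted p under 0.05. Fitted without the filter, 0 of all 17 member probe sets were called (limma, lowest adjusted p = 0.584), against 0.15% of 22626 (0.0751% in each direction). In that fit 2 of the 17, of Srxn1 and Entpd5, had an unadjusted p under 0.05, a share near the 7.56% of all probe sets. The difference, Gsr-null minus WT, was positive on 15 of the 17 probe sets, among which Srxn1 and Entpd5 have several each. Counted by gene on the brightest probe set, it was positive for 7 of the 9 members and for 57.0% of all genes without a filter. On the brightest probe set of each member the median difference was 0.33, against 0.03 over all genes.

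**Figure D1:**
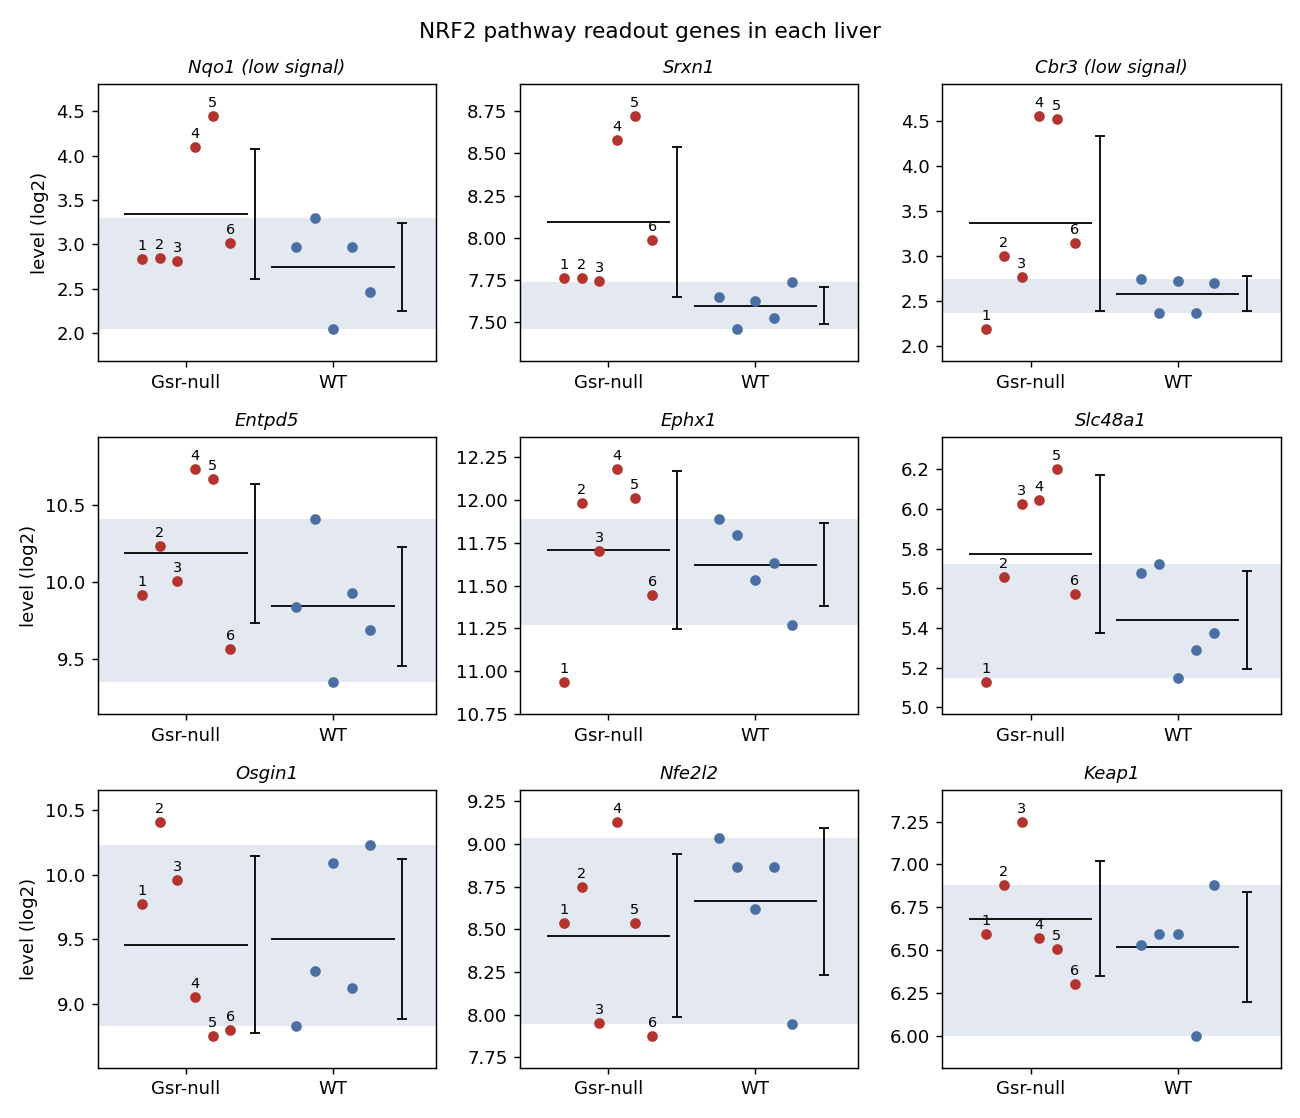
Log2 level of each readout gene on its brightest probe set in every liver, Gsr-null (red, numbered by sample) left of WT (blue); horizontal lines are means, bars at the side the SD, and the shaded band the range of the 5 WT samples. Gsr-null samples 4 and 5 stand above the band for Nqo1, Srxn1, Cbr3, Entpd5, Ephx1 and Slc48a1.

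Nqo1 encodes a quinone reductase that uses NAD(P)H and is the transcript most often read for NRF2 activity. Its single probe set (1423627_at) gave 2.83, 2.85, 2.82, 4.10, 4.45 and 3.02 in Gsr-null samples 1 to 6, against 2.97, 3.30, 2.04, 2.97 and 2.46 in WT samples 1 to 5. Samples 4 and 5 were thus 0.80 and 1.15 above the highest WT sample, and the other 4 Gsr-null samples lay inside the WT range. Only those 2 samples exceeded the filter level of 4, so the probe set was not among those tested. In the fit without a filter Nqo1 differed by 0.60 (SE 0.34, limma adjusted p = 0.74), and by 0.37 without Gsr-null sample 5.

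Cbr3, a carbonyl reductase that reduces quinones and other carbonyl compounds, was also highest in samples 4 and 5. It read 2.18, 2.99, 2.77, 4.56, 4.52 and 3.14 in Gsr-null samples 1 to 6, against 2.74, 2.37, 2.72, 2.37 and 2.69 in WT samples 1 to 5. Samples 4 and 5 stood 1.81 and 1.78 above the highest WT sample, samples 2, 3 and 6 were above it by 0.03 to 0.39, and sample 1 was below every WT sample. Without a filter Cbr3 differed by 0.78 (SE 0.39, limma adjusted p = 0.691), the largest difference among the members. The SD was 0.969 among Gsr-null and 0.193 among WT samples. Most values of Nqo1 and Cbr3 lay below the filter level.

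Srxn1 encodes sulfiredoxin, which repairs overoxidised peroxiredoxins. On its bright probe set (1426875_s_at) it read 7.76, 7.76, 7.74, 8.58, 8.72 and 7.98 in Gsr-null samples 1 to 6, against 7.65, 7.46, 7.62, 7.52 and 7.73 in WT samples 1 to 5. The groups did not overlap, which was so for 1 of the 17 member probe sets, for 0.986% of all 22626 and, with Gsr-null higher, for 0.539%. Among the 9560 tested probe sets it was so for 1.36%, and with Gsr-null higher for 0.575%. The separation was narrow in samples 1, 2 and 3, which exceeded the highest WT sample by 0.03, 0.03 and 0.01, and wide in samples 4 and 5, at 0.85 and 0.99. Srxn1 differed by 0.50 (SE 0.196, limma adjusted p = 0.494). The suffix of this probe set marks one that can bind several transcripts. The other 3 probe sets of Srxn1 failed the filter, with values of 2.74 to 4.11 in Gsr-null and 2.56 to 3.73 in WT samples, and on them samples 4 and 5 lay inside the WT range.

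Ephx1, the microsomal epoxide hydrolase of hepatocytes, passed the filter in all 11 livers. Its levels were 10.93, 11.98, 11.70, 12.18, 12.01 and 11.44 in Gsr-null samples 1 to 6, against 11.89, 11.79, 11.53, 11.63 and 11.27 in WT samples 1 to 5. Samples 2, 4 and 5 were above the WT range by 0.10 to 0.29, and sample 1 was below every WT sample. The difference was 0.09 (SE 0.214, limma adjusted p = 0.99), and it was -0.01 without Gsr-null sample 4 and -0.002 without WT sample 5.

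Entpd5 encodes a nucleoside diphosphatase of the endoplasmic reticulum that serves protein glycosylation, and it was measured by 4 probe sets that all passed the filter. On the brightest (1417384_at) it read 9.91, 10.23, 10.01, 10.74, 10.67 and 9.57 in Gsr-null samples 1 to 6, against 9.84, 10.41, 9.35, 9.93 and 9.69 in WT samples 1 to 5. The WT range was exceeded in samples 4 and 5 by 0.32 and 0.26 and the other 4 lay within it. The difference on it was 0.34, or 0.22 without WT sample 3. The 4 probe sets gave differences of 0.25 to 0.34, with limma adjusted p values of 0.621 to 0.975. On 3 of the 4, samples 4 and 5 were above every WT sample. On the fourth, WT sample 2 was the highest liver, at 8.93.

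Slc48a1, which carries heme out of endosomes and lysosomes, was high in a further Gsr-null liver. The brighter probe set (1450410_a_at) gave 5.13, 5.66, 6.03, 6.05, 6.20 and 5.57 in Gsr-null samples 1 to 6, against 5.67, 5.72, 5.15, 5.29 and 5.37 in WT samples 1 to 5. Samples 3, 4 and 5 were above the WT range by 0.31 to 0.48, sample 1 was just below it, and samples 2 and 6 were inside. The second probe set placed the same 3 samples above the WT range, by 0.19 to 0.55. On it sample 1, at 5.09, and sample 2 were inside the WT range, and sample 6, at 4.63, was below it. The differences were 0.33 (SE 0.196, limma adjusted p = 0.759) and 0.34 (SE 0.221, limma adjusted p = 0.8).

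Osgin1, an oxidative stress induced inhibitor of growth, ordered the livers differently. It read 9.77, 10.41, 9.96, 9.05, 8.76 and 8.80 in Gsr-null samples 1 to 6, against 8.83, 9.25, 10.09, 9.13 and 10.23 in WT samples 1 to 5. Sample 2 alone was above the WT range, samples 5 and 6 were below it, and sample 4 lay among the lower WT values. With means of 9.46 ± 0.686 (SD, n = 6) in Gsr-null and 9.51 ± 0.619 (SD, n = 5) in WT livers, the difference was -0.05 (SE 0.352, limma adjusted p = 0.999), and its sign turned when any of several single livers was left out.

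The regulators themselves showed no difference that passed the test. Nfe2l2 read 8.54, 8.75, 7.95, 9.13, 8.54 and 7.88 in Gsr-null samples 1 to 6, against 9.04, 8.87, 8.62, 8.86 and 7.94 in WT samples 1 to 5. Sample 4 was above the WT range by 0.09, sample 6 was below it, and the other 4 were inside, sample 5 included. Its difference was -0.20 (SE 0.252, limma adjusted p = 0.956), and leaving out 1 liver moved it between -0.08 (without Gsr-null sample 6) and -0.38 (without WT sample 5). Keap1 read 6.60, 6.88, 7.25, 6.57, 6.50 and 6.30 in Gsr-null samples 1 to 6, against 6.53, 6.60, 6.60, 6.00 and 6.88 in WT samples 1 to 5. Sample 3 was above the WT range by 0.37, sample 2 by only 0.001, and samples 4 and 5 were inside. The counts below take sample 2 as above the range for Keap1. Keap1 differed by 0.16 (SE 0.19, limma adjusted p = 0.95), by 0.03 without WT sample 4, by 0.05 without Gsr-null sample 3 and by -0.03 without Gsr-null samples 2 and 3 together. Its second probe set failed the filter, at 1.92 to 3.30 in Gsr-null and 2.01 to 3.09 in WT samples.

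**Figure D2:**
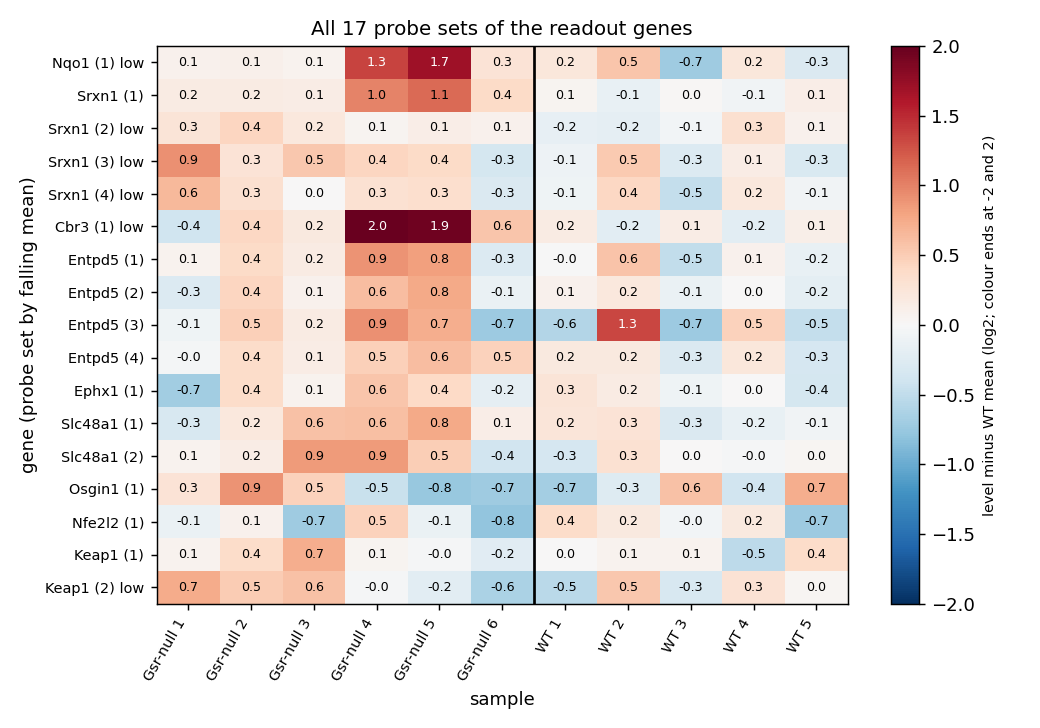
Level of all 17 member probe sets minus the WT mean of the same probe set (log2, printed in each cell), Gsr-null samples left of WT samples and probe sets of a gene numbered by falling mean; "low" marks probe sets that failed the filter. Columns Gsr-null 4 and 5 are red for Nqo1, the first probe set of Srxn1, Cbr3, Entpd5, Ephx1 and Slc48a1 and blue for Osgin1.

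Counted liver by liver on the brightest probe set of each member, 1, 5, 4, 7, 6 and 2 of the 9 genes were above the WT range in Gsr-null samples 1 to 6. The share of all 12393 genes above it, without a filter, was 13%, 32.2%, 31.9%, 21.8%, 16.4% and 19.3% in the same samples. Thus samples 4 and 5 had 77.8% and 66.7% of the readout genes above the WT range where 21.8% and 16.4% of all genes were. Sample 1 had 3 of the 9 below the WT range, sample 6 had 2 and sample 5 had 1, and the other samples had 0. Gsr-null samples 4 and 5 were the 2 highest of all 11 livers for 6 of the 9 members, and for 5.61% of all genes. Counted over every member probe set, it was so on 8 of 17. This unevenness among the Gsr-null livers was seen in these values and was not tested.

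**Figure D3:**
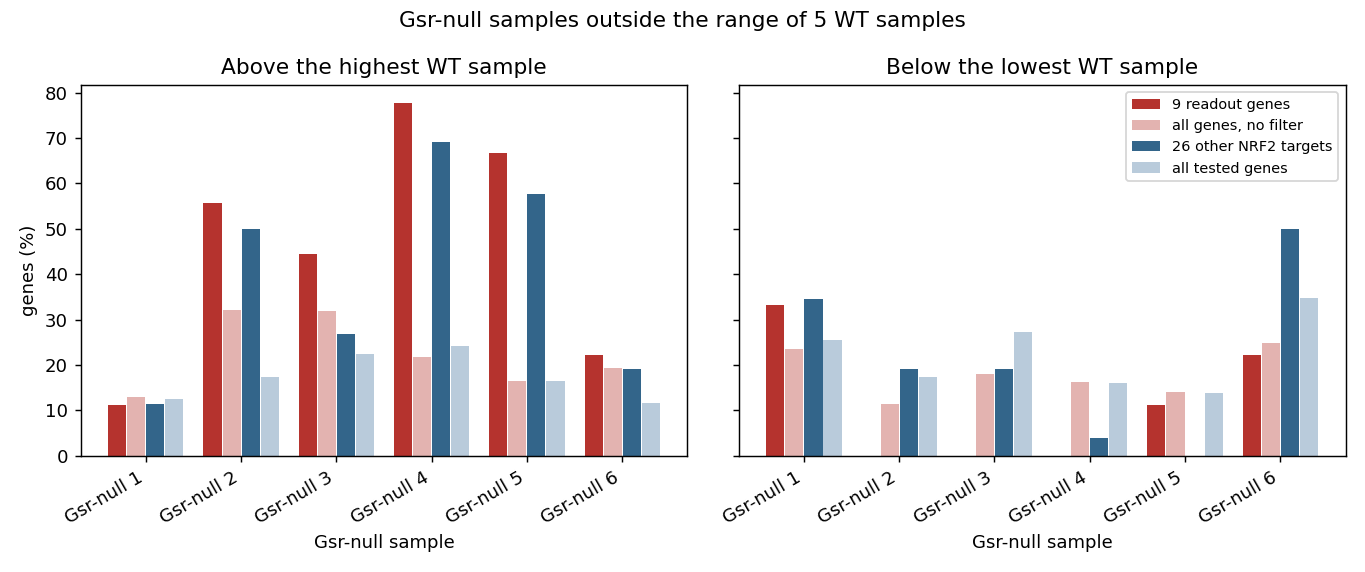
Percent of genes above the highest (left) or below the lowest (right) of the 5 WT samples in each Gsr-null sample, for the 9 readout genes, all genes without a filter, 26 other NRF2 targets and all tested genes. The readout genes reach 77.8% above the WT range in Gsr-null sample 4 and 66.7% in sample 5.

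The 2 sets of livers by the 3′ minus 5′ control difference gave unlike values. Among the livers of higher difference, Gsr-null samples 4, 5 and 6 minus WT samples 1, 3 and 5 was 1.36 for Nqo1, 1.35 for Cbr3, 0.76 for Srxn1, 0.70 for Entpd5, 0.54 for Slc48a1 and 0.32 for Ephx1. Among those of lower difference, Gsr-null samples 1, 2 and 3 minus WT samples 2 and 4 was -0.30 for Nqo1, 0.28 for Cbr3, 0.27 for Srxn1, -0.12 for Entpd5, 0.10 for Slc48a1 and -0.17 for Ephx1. Srxn1, Cbr3 and Slc48a1 thus kept a positive sign in both sets, while Nqo1, Entpd5 and Ephx1 did not. In the lower set Cbr3 was low throughout, at 2.18, 2.99 and 2.77 in Gsr-null samples 1, 2 and 3. Its positive sign there rests on samples 2 and 3, the arrays with the higher floor, while sample 1 was below every WT sample. Osgin1 was -0.85 in the higher and 0.86 in the lower set, Nfe2l2 -0.02 and -0.45, and Keap1 -0.21 and 0.61. No test of one set against the other was run. Sample 6 belongs to the same set as samples 4 and 5 and shared their pattern in part. It came next after them for Srxn1, at 7.98, and Cbr3, at 3.14, above every WT sample. Its Nqo1, at 3.02, and its Entpd5 on the brightest probe set, at 9.57, lay inside the WT range.

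Other NRF2 target genes of glutathione synthesis, conjugation, export and NADPH supply came from a list of 39, of which 29 were on the array with 1 symbol and 26 passed the filter. Gstm3, a mu-class glutathione S-transferase, was the 1 target that limma called higher, and 0 were called lower. Of all 6022 tested genes 0.432% were called and 0.216% called higher. Gstm3 read 9.16, 10.87, 10.68, 10.33, 11.06 and 9.27 in Gsr-null samples 1 to 6, against 7.93, 7.83, 8.03, 8.71 and 8.07 in WT samples 1 to 5, a difference of 2.11 (SE 0.352, limma adjusted p = 0.0265). All 6 Gsr-null livers were above every WT liver. That included sample 1, whose Cbr3, Ephx1 and, on the brighter of 2 probe sets only, Slc48a1 were below the WT range. The Gstm3 probe set is also of the kind that can bind several transcripts, and the mu-class genes are close paralogs. Ces1g had the next largest difference of the list, 1.29 (SE 0.271, limma adjusted p = 0.0863), and was above the WT range in 4 Gsr-null livers. By sign, 19 of the 26 differences were positive and 7 negative, with a median of 0.14, against -0.03 and 42.7% positive over all tested genes.

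Targets that conjugate compounds or carry the conjugates did not share 1 profile. Gstm2, another mu-class transferase, read 8.30, 9.38, 8.98, 10.13, 10.40 and 9.24 in Gsr-null samples 1 to 6, against 8.70, 8.28, 8.31, 9.13 and 8.19 in WT samples 1 to 5. Abcc3, an exporter of glucuronides, read 10.04, 10.71, 10.65, 11.28, 11.31 and 10.23 in Gsr-null samples 1 to 6, against 10.26, 10.81, 9.68, 10.53 and 9.76 in WT samples 1 to 5. In both genes samples 4 and 5 were the highest livers, and Gstm2 was above the WT range in samples 2 and 6 as well, where Nqo1 was not. Abcc2, another exporter of conjugates, read 9.75 and 9.81 in samples 4 and 5, the lowest of the Gsr-null livers and inside the WT range of 9.61 to 10.45. Gstp1, a pi-class transferase, read 13.38 and 13.42 there, near the lowest WT sample at 13.35, and Gsta3, Gstm1 and Mgst1 did not have both livers highest. Of Gstm2 and Abcc3, neither gene passed the test, with differences of 0.88 (limma adjusted p = 0.484) and 0.49 (limma adjusted p = 0.723).

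Tkt and Pgd, enzymes of the pentose phosphate pathway, were also highest in those livers. Pgd read 9.05 and 8.65 in Gsr-null samples 4 and 5, 7.15 to 7.53 in the other 4 Gsr-null samples, and 7.49 to 7.89 in WT samples. Me1, the malic enzyme, spanned 7.26 to 11.45 among Gsr-null samples, highest in samples 4 and 5, and 8.55 to 10.94 among WT samples. The enzymes of glutathione synthesis and the heme oxygenase did not share this order: Gclc in samples 4 and 5 was 10.98 and 10.80, inside the WT range of 9.82 to 11.41, and Hmox1 was 4.66 and 4.63, inside 3.91 to 5.58. Over the 26 genes, 3, 13, 7, 18, 15 and 5 were above the WT range in Gsr-null samples 1 to 6, where 12.4%, 17.4%, 22.4%, 24.1%, 16.5% and 11.6% of all tested genes were. Samples 4 and 5 were the 2 highest livers for 12 of the 26, and for 8.42% of tested genes.

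**Figure D4:**
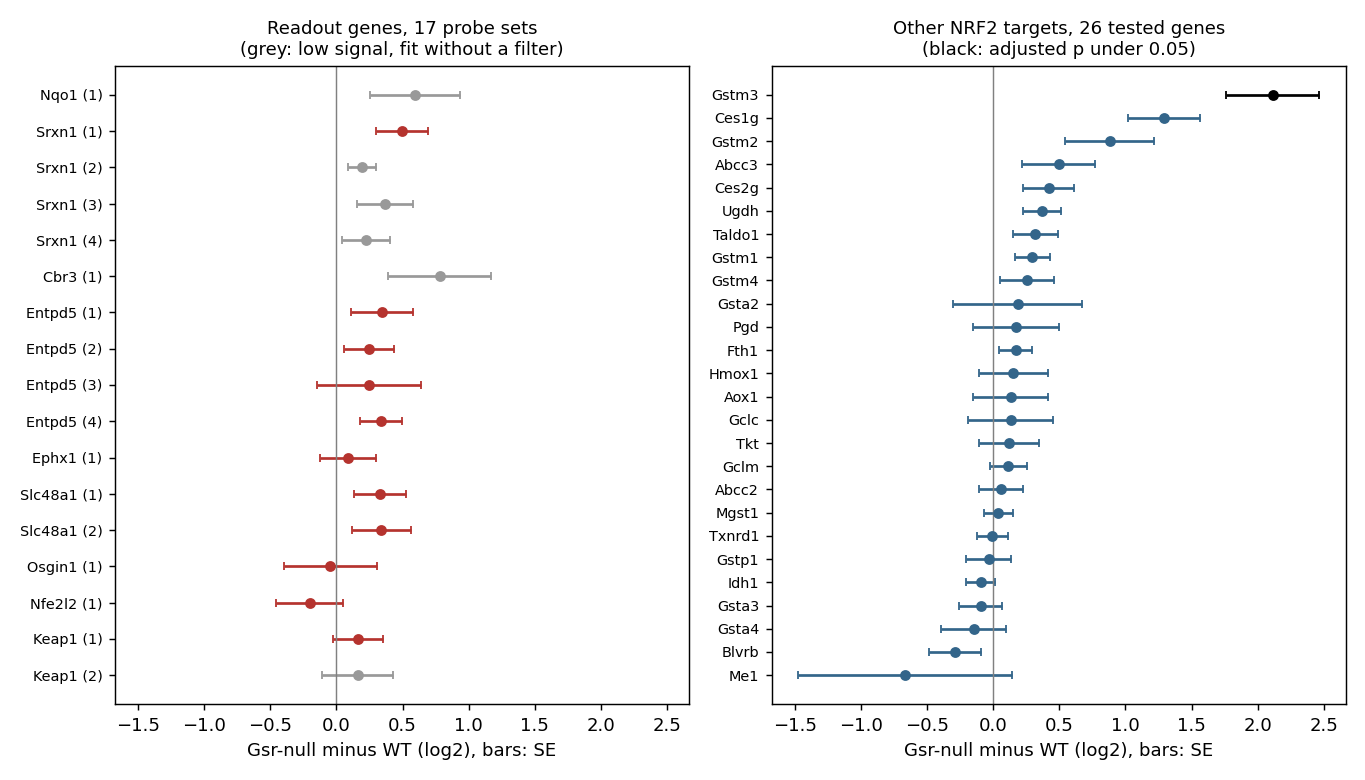
Difference, Gsr-null minus WT (log2, points with SE bars), for the 17 member probe sets (left; grey points failed the filter and come from the fit without it) and for 26 other NRF2 target genes (right). Gstm3, at 2.11, is the 1 gene drawn in black, for an adjusted p under 0.05.

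**Figure D5:**
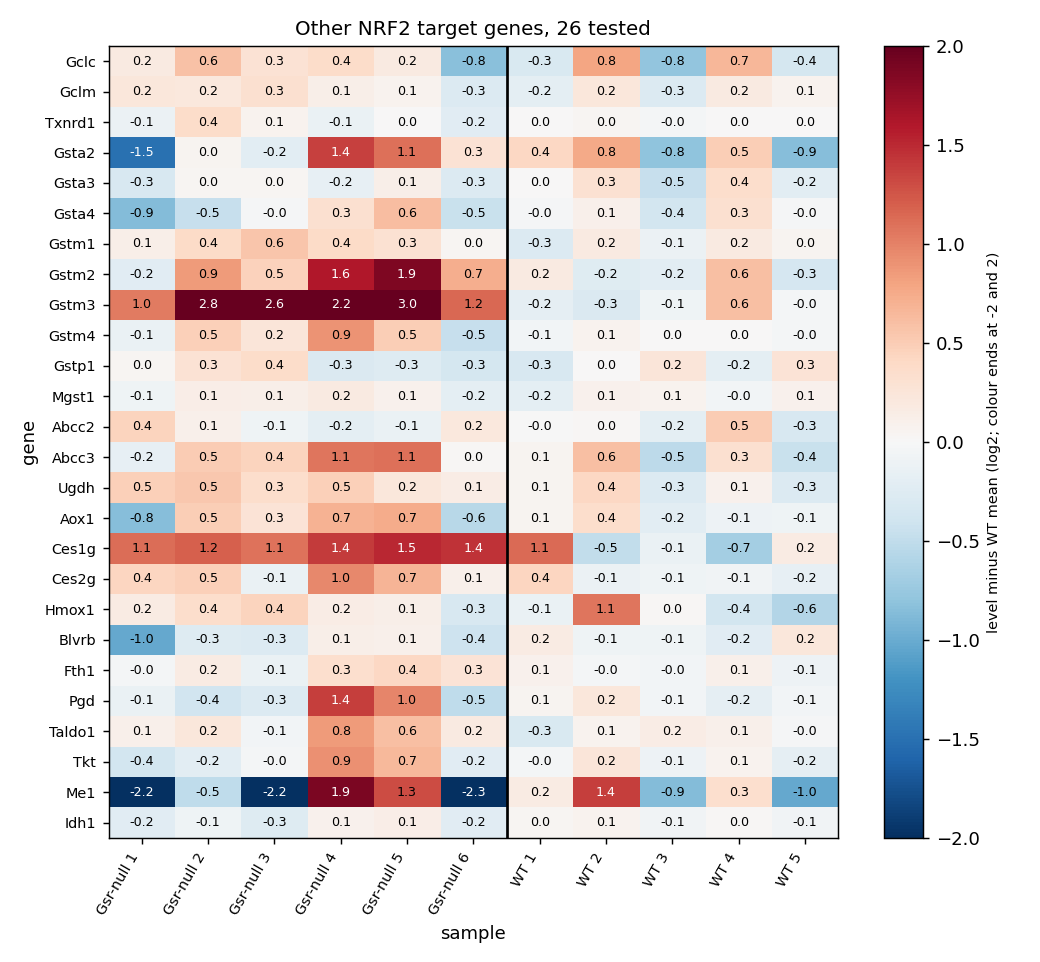
Level of 26 other NRF2 target genes minus the WT mean of the same gene (log2, printed in each cell), Gsr-null samples left of WT samples. Gstm3 is above the WT samples in all 6 Gsr-null samples, while Gstm2, Abcc3, Tkt and Pgd are highest in Gsr-null samples 4 and 5.

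Partners and regulators of NRF2 were taken from a list of 16 genes, 9 of which passed the filter. None of the 9 was called by limma, against 0.432% of tested genes, with 4 positive and 5 negative differences and a median of -0.004. Bach1, a repressor that competes with NRF2 for its elements, read 8.76, 7.60, 8.39, 8.70, 8.91 and 8.82 in Gsr-null samples 1 to 6, against 9.54, 9.54, 8.91, 9.09 and 9.55 in WT samples 1 to 5. In 5 of the 6 Gsr-null livers it was below every WT liver, and sample 5 was level with WT sample 3 at 8.91. Bach1 differed by -0.80 (SE 0.232, limma adjusted p = 0.28), so its lower level did not pass. Mafg, a small MAF partner of NRF2, differed by 0.36 (limma adjusted p = 0.695), Nfe2l1, the related factor NRF1, by 0.29 (limma adjusted p = 0.931) and Cul3 by -0.18 (limma adjusted p = 0.92).

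Some of the members answer to other receptors as well, and targets of those were read beside them. Nqo1 is also a target of the aryl hydrocarbon receptor, and of 7 genes listed for that receptor only Cyp1a2 passed the filter. Cyp1a2 read 10.45 and 10.96 in Gsr-null samples 4 and 5, below the lowest WT sample at 11.55. It differed by -0.25 between the genotypes (limma adjusted p = 0.956). The part of such receptors in the readout genes was not tested. Ephx1 is also induced through the constitutive androstane receptor. Of 7 tested targets of that receptor limma called 0, and the largest differences were -0.71 for Cyp2c37 (limma adjusted p = 0.487), -0.43 for Cyp2c54, 0.16 for Cyp2c55 and 0.11 for Cyp3a11. In sample 4, 1 of these 7 targets was above the WT range and 3 were below it, and in sample 5, 0 were above and 1 below. Cyp2b10, a main target of the receptor, read 5.79 and 5.62 in samples 4 and 5, inside the WT range of 2.77 to 7.65. Cyp2b9, of the same list but below the filter and named after its values were seen, was 9.97 and 9.37 in Gsr-null samples 4 and 5, 1.78 to 2.60 in the other Gsr-null samples and 1.77 to 5.00 in WT samples. Of the other list genes below the filter, Cyp2b13 read 3.81 and 5.28 in samples 4 and 5, against 2.23 to 3.62 in WT samples. Gadd45b read 2.20 and 1.99 there, against 2.07 to 2.25 in WT samples. Whether the levels of Cyp2b9 and Cyp2b13 came through this receptor was not tested.

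Markers of inflammation and of other liver cells were read in the same livers, and limma called none of those tested. The mean level of 9 acute phase genes was 13.35, 11.45, 12.32, 10.35, 10.78 and 12.84 in Gsr-null samples 1 to 6, against 10.10, 9.62, 10.70, 9.71 and 9.73 in WT samples 1 to 5. Samples 4 and 5 were thus the lowest of the Gsr-null livers on this measure. The 6 tested markers of Kupffer cells and macrophages averaged 6.65 and 7.05 in samples 4 and 5, 6.67 to 7.86 in the other Gsr-null samples and 6.76 to 7.46 in WT samples. The 4 tested markers of stellate cells and fibroblasts averaged 8.39 and 8.06 in samples 4 and 5, 6.86 to 8.15 in the other Gsr-null samples and 7.34 to 7.71 in WT samples. Of these, the collagen gene Col1a2 read 6.76 and 5.85 in samples 4 and 5, against at most 5.05 in WT samples, and Col3a1 read 9.07 and 8.81, against at most 7.37. Both were also above the WT range in sample 1, at 5.93 and 8.65, and in sample 2, at 5.18 and 8.43. Col1a2 was above it in sample 3 too, at 5.16. Nqo1 was inside its WT range in samples 1, 2 and 3. Dcn and Reln, of the same list, lay inside the WT range in samples 4 and 5. Over 11 livers the likeness of Col1a2 to Srxn1, the lower of Pearson's r and Spearman's rho, was 0.79. Without samples 4 and 5 Pearson's r between them was 0.44. The 5 tested markers of sinusoidal endothelium averaged 6.04 to 7.27 in Gsr-null and 6.44 to 7.08 in WT samples. The part of inflammation or of cell makeup in the readout genes was not tested. In whole liver, fewer cells of a type and less RNA per cell cannot be told apart.

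The tested genes whose profile over the 11 livers was most like a member's were ranked by the lower of Pearson's r and Spearman's rho, as a description without a test. They were Rdh16, Mkrn1 and Hnmt for Nqo1 (likeness 0.92, 0.907 and 0.884), Apoc2, Ccdc28a and Scand1 for Srxn1 (0.87, 0.856 and 0.834) and Uck1, Akr1a1 and Slc2a9 for Cbr3 (0.864, 0.845 and 0.843). For these 3 members samples 4 and 5 lay farthest out, and without them Pearson's r over the other 9 livers was 0.707 for Rdh16, 0.866 for Apoc2 and 0.738 for Uck1. Entpd5 was most like Abcc3, Ebpl and Tmem135 (0.936, 0.927 and 0.909), Ephx1 most like Aox1, Pbld2 and Ces1e (0.905, 0.904 and 0.891), and Slc48a1 most like Dcxr, Btbd1 and Rmnd5b (0.915, 0.907 and 0.85). Abcc3, Aox1 and Gstp1, named next, are themselves on the list of NRF2 targets. Osgin1 was most like Pml, Abce1 and Gstp1 (0.927, 0.893 and 0.891), Nfe2l2 most like Ddx42, Hsd17b6 and Rab14 (0.891, 0.864 and 0.855), and Keap1 most like Uimc1, Rela and Srpr (0.933, 0.922 and 0.92). The 11 livers share genotype and array effects in these values, and the genes are the highest of 6022.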

How the data were processed

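Liver RNA of 6 Gsr-null and 5 WT mice was labelled with biotin and read on single-colour Affymetrix arrays. The authors deposited log2 values, 1 per probe set and sample, made with GCRMA per the submitters' processing notes. GCRMA corrects background by probe sequence and can draw low signals together. No version, filter or scan date is recorded in the labels, scanner files were not used here, and the log2 scale is read from the values. The number of arrays limits the precision.

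Of 22690 probe sets 64 controls were left out, and of the other 22626, 20380 had 1 symbol, 691 several and 1555 none. The Entrez ID of 20351 was found in RefSeq GRCm38.p6, and 0 symbols changed. A probe set was tested if it exceeded 4 (log2) in 5 or more samples, by limma 3.58.1 (R 4.3.3) with Benjamini-Hochberg adjustment over 9560 probe sets. In data simulated for the Gsr-null against WT comparison over 9560 probe sets, limma found 71% of planted log2 changes of 1 and 96% of those of 2, while 6.7% of calls had no planted change. There 200 changes were planted, in noise with the same SD in both groups. Every member difference was smaller than the planted changes, so these shares do not apply to the members. Members that failed the filter were fitted without it. A gene is represented by its brightest probe set, tested ones only outside the members.

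The members, lists and tests were chosen with earlier results of these data known. Named are all members, Gsr, the called genes of each list or else up to 4 with the largest difference, and the 3 genes most like each member. Further list genes (Gstm1, Gstm2, Gsta3, Gstp1, Mgst1, Abcc2, Abcc3, Ces1g, Tkt, Pgd, Me1, Gclc, Hmox1, Cyp2b9, Cyp2b10, Cyp2b13, Gadd45b, Col1a2, Col3a1, Dcn and Reln) were picked after their values were seen. Alternatives covered filters, normalization, variance models, blocks, the threshold, probe set means and the omission of samples. Plots used matplotlib 3.10.9 (Python 3.11.15).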

Additional observations from a re-analysis of the deposited data

Results flagged for a closer look

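The spread of single samples was examined in 58 groups of values, covering the members, Gsr and the named list genes. In 1 group a sample lay far outside the others, and about 2.9 such groups, 1 in 20, would arise by chance. It was WT sample 4 for Gstm3, at 8.71, where the remaining WT samples spanned 7.83 to 8.07. The rule looks for 1 sample apart from all the rest. Samples that stand out together, as Gsr-null samples 4 and 5 for Cbr3, mask each other and are not flagged.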

How the results depend on the processing

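Of 188 values of the 9 members under alternatives, 179 kept their direction and 0 gained a call. The threshold, the variance model without weights and the filters leave a difference unchanged by construction. Their values among the 188 therefore could not turn and say nothing about direction. The lowest limma adjusted p was 0.18, for Srxn1. The count of member probe sets called stayed at 0 in each direction under every alternative run, and Gsr stayed called at -1.93 to -1.77. Directions turned 9 times, for differences near 0. Ephx1 became -0.0076 without Gsr-null sample 4 and -0.0015 without WT sample 5, and Keap1 -0.027 without Gsr-null samples 2 and 3 together. Osgin1 became 0.085 with the replicate block, 0.033, 0.093 and 0.085 without Gsr-null samples 4, 5 or 6, and 0.098 and 0.134 without WT samples 3 or 5. Without 1 sample, Ephx1 reached 0.242 (Gsr-null 1) and Osgin1 -0.238 (Gsr-null 2), each moving over 1.5 times in most omissions. Other moves over 1.5 times were Nqo1 at 0.374 (Gsr-null 5), Entpd5 at 0.22 (WT 3), Nfe2l2 at -0.0996, -0.335, -0.0849, -0.109 and -0.382 (Gsr-null 3, 4, 6, WT 1, 5) and Keap1 at 0.0504, 0.0333 and 0.253 (Gsr-null 3, WT 4, 5). Array weights moved Entpd5 to 0.578, Ephx1 to 0.22, Osgin1 to -0.2, Nfe2l2 to -0.0393 and Keap1 to 0.0992, and the mean of its probe sets moved Srxn1 to 0.32. Among all probe sets, the counts of 16 called higher and 21 called lower were 7 and 7 under the filter at 6, 2 and 1 with the replicate block, 6 and 4 without Gsr-null samples 2 and 3 together, and 25 higher at an adjusted p under 0.10. Leaving out 1 sample gave 9 to 24 higher and 5 to 19 lower; the first moved by over 1.5 times without WT sample 5 (9), the second without any WT sample (5 to 12) or Gsr-null sample 2 or 3 (10 each). The cause was not tested, except that fewer probe sets or samples enter by construction. Slc48a1, Nqo1 and Cbr3 give no value at the filter of 6. The replicate numbers give no pairing: r between the deviations of Gsr-null and WT samples sharing a number was -0.173, 0.0361, -0.0561, -0.243 and -0.171, and the best match had the same number for 0 of 5 WT samples. Low signal limits what Nqo1 and Cbr3 can show.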
